A study of Mus musculus with 6 samples.

Results

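The genes described here encode phosphodiesterase 6 (PDE6), the enzyme that hydrolyses cyclic GMP in photoreceptors, together with the proteins that help it mature and reach the outer segment. The 8 genes were taken by symbol from tables of 24346 gene symbols: the catalytic subunits Pde6a, Pde6b and Pde6c, the inhibitory subunits Pde6g and Pde6h, the prenyl-binding protein Pde6d, the chaperone Aipl1 and the lipid-binding protein Unc119. They were chosen by what they encode, but with the genotype differences of these same libraries already known, so every genotype difference of an individual gene below is a description. All 8 were present in the tables and all 8 passed the filter on low values.

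Whole retinas were taken at postnatal day 12. The 3 triple-deficient libraries were Panky-/-;Panky-like-/-;Nrl-/-, and the 3 control libraries were Panky+/-;Panky-like+/-;Nrl-/-. Both groups were therefore labelled Nrl-/-, the product of Nrl being what commits photoreceptor precursors to become rods, and the controls were heterozygous rather than wild type for the other genes. Panky is a RefSeq synonym of Ankrd33, an ankyrin repeat cofactor that represses photoreceptor genes driven by the homeobox factor CRX, and Panky-like is taken here to be the paralog Ankrd33b, which the labels do not state. The design text speaks of littermate pairs, but no label says which libraries form a pair or whether each comes from its own animal, so the errors cover the spread between these libraries. In whole retina, fewer cells of a type and less RNA per cell cannot be told apart.

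In a photoreceptor, light-activated transducin relieves PDE6 of its inhibitory subunits, the enzyme lowers cyclic GMP, and the cation channels of the outer segment close. Rods assemble the enzyme from PDE6A, PDE6B and the inhibitory subunit encoded by Pde6g, whereas cones use a pair of PDE6C subunits with the inhibitory subunit encoded by Pde6h. The catalytic subunits carry prenyl lipid anchors at their C termini; AIPL1, working with the chaperone HSP90, is needed for them to fold and assemble, and the protein encoded by Pde6d binds the prenyl groups during transport. UNC119 binds acylated proteins such as the transducin alpha subunits.

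Of the genes named in the genotypes, Ankrd33b was at 1.80, 1.31 and 1.39 FPKM (fragments per kilobase of transcript, normalised to library size and deposited by the authors) in triple-deficient libraries 1, 2 and 3, against 35.4, 32.6 and 33.4 FPKM in controls 1, 2 and 3. Ankrd33 was at 50.5 to 59.6 FPKM in triple-deficient and 104 to 110 FPKM in control libraries, its triple-deficient mean being 52.2% of the control mean. Nrl itself was at 51.3 to 53.7 FPKM in triple-deficient and 38.3 to 49.2 FPKM in control libraries, although every library is labelled Nrl-/-. All 3 triple-deficient libraries lay above the controls (log2 difference 0.25, limma adjusted p = 0.861). The tables hold 1 value per gene and do not show which exons the Nrl or Ankrd33 fragments cover, so the values of these genes do not check the deletions. Library depth, estimated from the steps of low values, was about 18.1 to 27.1 M fragments in triple-deficient and 22.5 to 24.9 M in control libraries. Triple-deficient 3 stood apart in base composition: across the genes tested, which do not count as replicates, the Spearman correlation between its deviation from the mean of the 6 libraries and GC content was -0.59, whereas the other libraries had values of 0.07 to 0.30. Among the rod markers, a pair was near 0: Gnat1, the rod transducin alpha subunit, was at 0.514 FPKM or less in all 6 libraries, and Cnga1, the rod channel subunit, did not exceed 0.0171 FPKM. The other 9 listed rod markers passed the filter on low values, among them Gngt1, the rod transducin gamma subunit, at 289 to 367 FPKM in triple-deficient and 258 to 325 FPKM in control libraries, and Rom1, a disc rim protein, at 195 to 214 FPKM in triple-deficient and 198 to 210 FPKM in control libraries.

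In GRCm38, Pde6g (bases 120447607 to 120453500), Aipl1 (72028717 to 72042460) and Unc119 (78343495 to 78349164) lie on chromosome 11, Pde6b (108388373 to 108431743) on chromosome 5, Pde6h (136952218 to 136963485) on chromosome 6, Pde6d (86543012 to 86582785) on chromosome 1 and Pde6c (38132781 to 38183955) on chromosome 19. Pde6a lies on chromosome 18, and none of the 8 on chromosome 15, which carries Ankrd33 and Ankrd33b. Because FPKM is scaled to transcript length, the levels of the 8 genes can be set side by side. Averaged over the 6 libraries, Pde6h was the most abundant at 862 FPKM, which placed it at rank 11 of all genes, and Pde6g followed at 738 FPKM and rank 17. Unc119 averaged 541 FPKM, Aipl1 520 FPKM, Pde6c 345 FPKM and Pde6d 117 FPKM. The rod catalytic genes Pde6b and Pde6a were the lowest, at 20.3 and 16.1 FPKM. In each of the 6 libraries Pde6h exceeded Pde6g, Pde6g exceeded Unc119, Aipl1 exceeded Pde6c, Pde6c exceeded Pde6d and Pde6d exceeded Pde6b. Unc119 and Aipl1 did not separate, with Unc119 the higher of the pair in 4 of 6 libraries, and likewise Pde6b exceeded Pde6a in 4 of 6. The lowest ratio between Pde6d and Pde6b within a library was 4.83, so the gap between the rod catalytic genes and the rest was far wider than the spread between libraries.

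**Figure D1:**
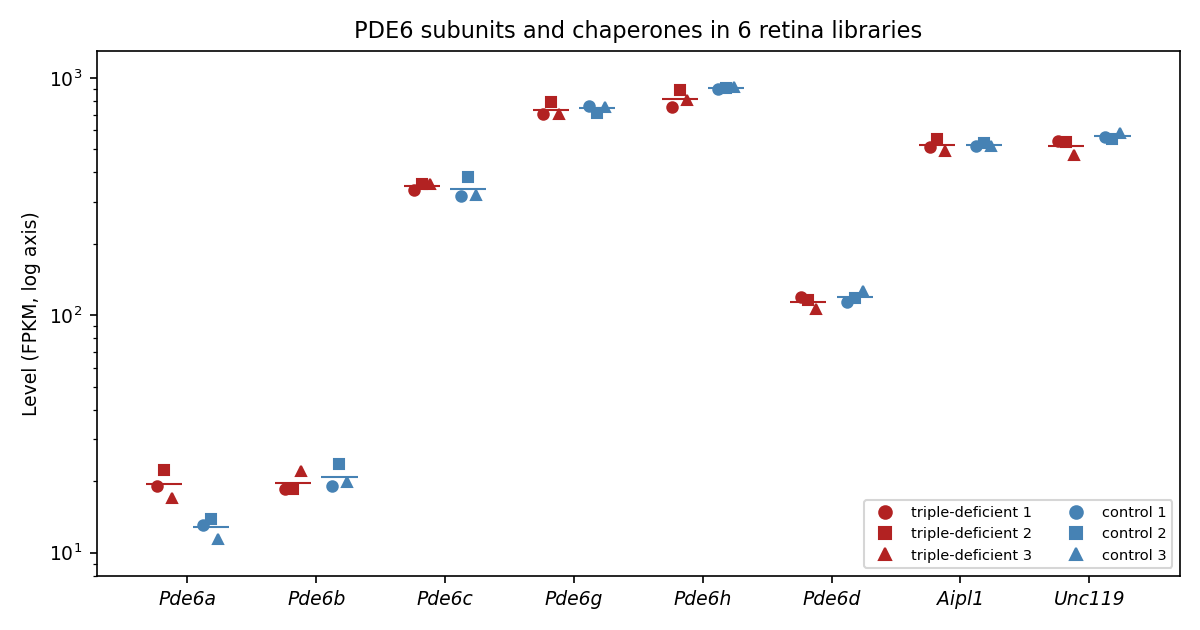
Level of each gene in FPKM on a log axis, with 1 point per library and a line at the mean of each group. Pde6a is the gene with the clearest separation, at 17.0 to 22.4 FPKM in triple-deficient and 11.5 to 13.8 FPKM in control libraries, and both rod catalytic genes lie far below the inhibitory subunits.

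Among the catalytic subunits, Pde6a was the gene whose values lay apart by genotype. Pde6a, the rod alpha subunit, was at 19.0, 22.4 and 17.0 FPKM in triple-deficient libraries 1, 2 and 3, against 13.1, 13.8 and 11.5 FPKM in controls 1, 2 and 3. All 3 triple-deficient libraries lay above all 3 controls. The means were 19.5 ± 2.72 FPKM in triple-deficient and 12.8 ± 1.22 FPKM in control libraries (SD, n = 3 each), a ratio of 1.52. On the log2(FPKM + 1) scale the difference was 0.56 (SE 0.103), with a 95% interval of 0.33 to 0.80. At the estimated depth, and if all fragments came from its longest annotated transcript, the lowest Pde6a value stood for about 1212 fragments, so no Pde6a value rested on few fragments.

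Pde6b, the beta subunit that pairs with PDE6A in the rod enzyme, did not show the same separation. It was at 18.5, 18.5 and 22.0 FPKM in triple-deficient libraries 1, 2 and 3, against 19.1, 23.7 and 19.8 FPKM in controls 1, 2 and 3. The groups overlapped, and the difference was -0.08 (SE 0.095, 95% interval -0.30 to 0.14) on the log2(FPKM + 1) scale. The upper bound of that interval lies below the lower bound of 0.33 for Pde6a, but the intervals are not adjusted over genes. Pde6a did not pass over all genes (limma adjusted p = 0.448), and its difference from Pde6b was not tested.

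Pde6c, the cone catalytic subunit, was at 338, 356 and 356 FPKM in triple-deficient libraries 1, 2 and 3, against 316, 383 and 321 FPKM in controls 1, 2 and 3. Control 2 had the highest value of the 6 and controls 1 and 3 the lowest. The groups overlapped, with a difference of 0.04 (SE 0.077, 95% interval -0.13 to 0.22) on the same log2 scale. Control 2 was also the library with the highest Pde6b value.

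The inhibitory subunits, which hold the enzyme inactive in the dark, were the most abundant transcripts of the group. Pde6g was at 702, 791 and 704 FPKM in triple-deficient libraries 1, 2 and 3, against 759, 714 and 756 FPKM in controls 1, 2 and 3. These ranges overlapped, and the log2 difference was -0.02 (SE 0.065, 95% interval -0.17 to 0.13). Pde6h was at 756, 891 and 807 FPKM in triple-deficient libraries 1, 2 and 3, against 898, 906 and 913 FPKM in controls 1, 2 and 3. Every triple-deficient library was below every control, with a narrow gap between triple-deficient 2 and control 1. The controls spread far less, the levels being 818 ± 67.9 FPKM in triple-deficient and 906 ± 7.37 FPKM in control libraries (SD, n = 3 each). The log2 difference was -0.15 (SE 0.069), and its 95% interval of -0.31 to 0.01 included 0. The exons of Pde6h share 136 bases with those of Arhgdib on the opposite strand, which averaged 8.14 FPKM, and whether counting used strand is not given in the sources used here.

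The prenyl-binding protein and the chaperones lay within narrow ranges. Pde6d was at 119, 116 and 107 FPKM in triple-deficient libraries 1, 2 and 3, against 113, 118 and 127 FPKM in controls 1, 2 and 3. Aipl1 had the smallest spread of the 8 genes, with a coefficient of variation of 3.89% over the 6 libraries, at 513, 553 and 493 FPKM in triple-deficient libraries 1, 2 and 3, against 515, 531 and 518 FPKM in controls 1, 2 and 3. Both pairs of ranges overlapped, with log2 differences of -0.07 (95% interval -0.21 to 0.07) for Pde6d and -0.01 (-0.14 to 0.13) for Aipl1. Unc119 was at 541, 534 and 472 FPKM in triple-deficient libraries 1, 2 and 3, against 561, 553 and 583 FPKM in controls 1, 2 and 3. All 3 triple-deficient libraries lay below the controls, the lowest being triple-deficient 3, the library that stood apart in base composition. The log2 difference of Unc119 was -0.14 (SE 0.065, 95% interval -0.29 to 0.01), and with 59.7% GC its longest transcript was the richest in GC of the 8. With each library's trend with GC content removed the log2 difference was -0.06. It was -0.07 without triple-deficient 3, -0.17 without triple-deficient 1 and -0.16 without triple-deficient 2. Without 1 of the controls it was -0.11 to -0.15. The part of base composition in this difference was not tested.

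Genotype was compared for all genes with limma on log2(FPKM + 1), with p-values adjusted over the 14325 genes tested by the Benjamini-Hochberg method. None of the 8 genes passed an adjusted p of 0.05, where 0.0279% of all genes tested did (0.00698% upward and 0.0209% downward). That share stands for 4 genes, among them Ankrd33b (limma adjusted p = 4.56e-07) and Ankrd33 (limma adjusted p = 0.00274), both downward. Of the 8, 1, Pde6a, had an unadjusted p below 0.05, where 5.09% of all genes did. The smallest adjusted p was 0.448, for Pde6a, and the others were 0.943 or higher. Sex was inferred from these same values by Xist above 1 FPKM, which held in 1 triple-deficient and 2 control libraries. With that inferred sex as a term, an alternative added after the data were seen, Pde6a passed (limma adjusted p = 0.0463, log2 difference 0.65). Its adjusted p ran from 0.0463 to 0.974 over 19 alternatives. The groups did not overlap for 1 of 8 genes upward and 2 of 8 downward, against 4.86% and 5.64% of all genes tested. Because the genes were chosen with this contrast known, nothing is read from these counts. Differences were above 0 for 2 of the 8 and below 0 for 6, where 48.2% of all genes tested were below 0. The median was -0.05, beside a median of 0.003 over all genes. For 7 of the 8 genes the 95% interval lay within 0.5 on the log2 scale in either direction.

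**Figure D2:**
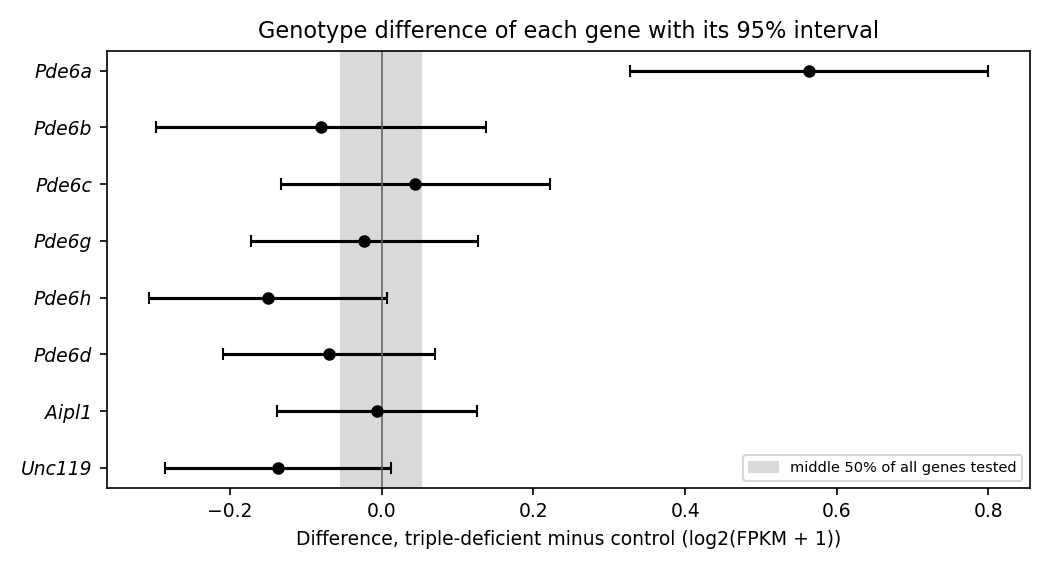
Difference between triple-deficient and control libraries on the log2(FPKM + 1) scale, with points for the estimate and bars for the 95% interval of the limma fit; the grey band holds the middle 50% of all genes tested. The interval of Pde6a runs from 0.33 to 0.80, and those of the other 7 genes include 0. The intervals are not adjusted over genes, and the limma adjusted p of Pde6a was 0.448.

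Catalytic transcripts in these retinas were mostly those of the cone subunit. Of the summed FPKM of the catalytic genes, Pde6a and Pde6b together made up 10.01%, 10.3% and 9.89% in triple-deficient libraries 1, 2 and 3, against 9.25%, 8.91% and 8.88% in controls 1, 2 and 3. Pde6c supplied the rest in every library. Within the rod pair, the ratio of Pde6a to Pde6b was 1.03, 1.21 and 0.77 in triple-deficient libraries 1, 2 and 3, against 0.686, 0.584 and 0.578 in controls 1, 2 and 3. The groups did not overlap for either measure, and in triple-deficient libraries 1 and 2 Pde6a exceeded Pde6b, which it did in no control.

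The inhibitory subunits had a different balance. Pde6g, the inhibitory gene of rods, made up 48.1%, 47.0% and 46.6% of the summed FPKM of Pde6g and Pde6h in triple-deficient libraries 1, 2 and 3, against 45.8%, 44.1% and 45.3% in controls 1, 2 and 3. It was thus nearly as abundant as the cone gene in retinas whose Gnat1 level was below 1 FPKM. Of the 11 listed rod markers, however, 9 passed the filter, with means over the 6 libraries from 1.75 FPKM (Esrrb) to 1291 FPKM (Sag). Pde6g stood at 18.7 ± 0.664 times the summed rod catalytic level in triple-deficient and 22.3 ± 2.81 times in control libraries, and Pde6h at 2.34 ± 0.145 times the Pde6c level in triple-deficient and 2.68 ± 0.275 times in control libraries (SD, n = 3 each). The groups overlapped for both ratios. With the rod and cone subunit genes summed, inhibitory transcripts exceeded catalytic ones 3.99 ± 0.223 times in triple-deficient and 4.45 ± 0.518 times in control libraries, and Aipl1 exceeded the catalytic sum 1.34 ± 0.078 times in triple-deficient and 1.40 ± 0.123 times in control libraries, again with overlap. These shares and ratios follow from the same FPKM as the differences above and are descriptions. The share of Pde6g did not overlap between the groups, although Pde6g itself did (log2 difference -0.02). All triple-deficient values of Pde6h lay below the controls (-0.15). Of the rod catalytic pair, Pde6a lay above the controls (0.56), whereas Pde6b overlapped (-0.08).

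**Figure D3:**
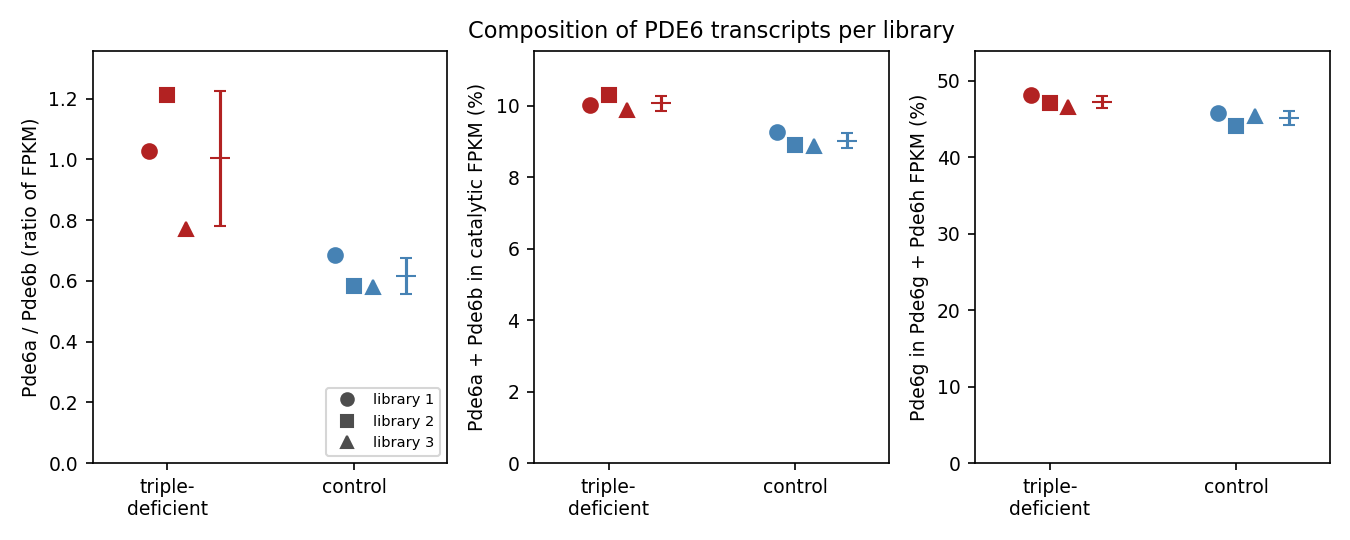
Ratio of Pde6a to Pde6b, share of Pde6a and Pde6b in the catalytic FPKM, and share of Pde6g in the inhibitory FPKM, with 1 point per library and the mean ± SD beside them. All 3 triple-deficient libraries lie above all 3 controls in each panel, with a ratio of Pde6a to Pde6b of 0.77 or more in triple-deficient and 0.686 or less in control libraries. The levels of Pde6b and of Pde6g themselves overlapped between the groups.

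Promoter windows of 300 bases, from 250 before to 50 after a start site, were available from RefSeq (GRCm38.p6) for 5 of the 8 genes and were searched on both strands for TAATCC, the core recognised by CRX, and for TGCTGA, the core of the NRL response element. Over 32851 such windows of all genes, 7.06% held TAATCC or its reverse complement and 19.5% held TGCTGA or its reverse complement. The windows of Pde6b, Pde6h and Aipl1 are printed because they contrast a rod catalytic gene, the cone inhibitory gene and the chaperone that serves both enzymes. They read along the coding strand from 5′ to 3′, at chr5:108388123-108388422 on the plus strand for Pde6b, chr6:136954273-136954572 on the plus strand for Pde6h and chr11:72037460-72037759 on the minus strand for Aipl1. Of these windows, only that of Pde6b spans the annotated 5′ end of its gene. Those of Pde6h and Aipl1 lie at start sites inside the annotated genes. Capitals mark matches to either core, and positions below are those of the first capital letter of a match.
Pde6b: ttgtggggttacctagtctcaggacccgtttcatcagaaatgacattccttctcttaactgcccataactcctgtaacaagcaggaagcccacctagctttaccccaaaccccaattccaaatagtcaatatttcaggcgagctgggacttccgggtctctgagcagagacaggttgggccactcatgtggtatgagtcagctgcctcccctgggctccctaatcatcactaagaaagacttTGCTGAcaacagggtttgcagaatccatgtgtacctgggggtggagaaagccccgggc
Pde6h: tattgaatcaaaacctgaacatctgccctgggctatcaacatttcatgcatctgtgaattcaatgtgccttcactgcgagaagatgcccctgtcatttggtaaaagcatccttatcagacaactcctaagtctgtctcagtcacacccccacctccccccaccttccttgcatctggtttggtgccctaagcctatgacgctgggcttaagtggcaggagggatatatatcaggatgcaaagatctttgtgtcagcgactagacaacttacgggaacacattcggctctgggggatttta
Aipl1: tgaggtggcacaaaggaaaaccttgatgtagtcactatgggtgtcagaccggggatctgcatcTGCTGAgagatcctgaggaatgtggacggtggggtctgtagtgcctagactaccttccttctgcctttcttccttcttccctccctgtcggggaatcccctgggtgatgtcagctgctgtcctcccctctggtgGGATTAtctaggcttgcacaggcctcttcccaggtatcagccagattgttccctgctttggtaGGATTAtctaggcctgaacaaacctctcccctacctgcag
The Pde6b window held TGCTGA at 8 bases before the start site and no TAATCC. The Aipl1 window held GGATTA, the reverse complement of TAATCC, at 53 bases before and 10 bases after the start site, and TGCTGA at 187 bases before it. The Pde6h window and the single Pde6d window held neither, and of 3 Unc119 windows 1 held GGATTA and 1 the reverse complement of TGCTGA. Both of those Unc119 windows lie inside the gene, and the window at its annotated 5′ end held neither core. A match is a run of letters and no evidence of binding.

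The other genes of phototransduction were compared as a list of 26, of which 24 passed the filter; Gnat1 and Cnga1 did not. None passed in limma (0.0279% of all genes tested did), and 3 had an unadjusted p below 0.05 (5.09% did). The groups did not overlap upward for 2 and downward for none (4.86% and 5.64% of all genes tested). The median log2 difference was -0.002. Without triple-deficient 3, Slc24a2, the exchanger that extrudes calcium from cones, passed (log2 difference -0.97, limma adjusted p = 0.0141). With all 6 libraries the smallest limma adjusted p of the list was 0.866, and Slc24a2 overlapped between the groups. The most abundant were cone genes and Sag: Gngt2, the cone transducin gamma subunit, was at 1557 ± 110 FPKM in triple-deficient and 1650.5 ± 87.4 FPKM in control libraries, and Opn1sw, the short-wavelength opsin, at 1474.5 ± 81.5 FPKM in triple-deficient and 1545 ± 35.9 FPKM in control libraries (SD, n = 3 each). Sag, the rod arrestin that mouse cones make as well, was at 1289 ± 5.70 FPKM in triple-deficient and 1292 ± 52.9 FPKM in control libraries, and Gnb3, the cone transducin beta subunit, at 1046 ± 41.0 FPKM in triple-deficient and 1054 ± 24.3 FPKM in control libraries. The smallest p-values belonged to genes of low level. Slc24a1, which extrudes calcium from rod outer segments, was at 5.70, 5.37 and 5.81 FPKM in triple-deficient and 5.32, 4.33 and 4.24 FPKM in control libraries, and Gucy2f, a guanylate cyclase that makes the cyclic GMP that PDE6 removes, was at 3.31, 3.51 and 3.16 FPKM in triple-deficient and 3.16, 2.55 and 2.16 FPKM in control libraries. In both genes all triple-deficient libraries lay above the controls, and neither passed (limma adjusted p = 0.866 and 0.927).

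The markers of rods give the setting of the Pde6a values. Of 11 listed rod markers 9 passed the filter, and none of the 9 passed in limma (0.0279% of all genes tested did). An unadjusted p below 0.05 was found for 2 (5.09% of all genes tested). A difference above 0 was found for 6, where 48.2% of all genes tested had one below 0. The groups did not overlap upward for 3 and downward for none (4.86% and 5.64% of all genes tested), and the median log2 difference was 0.10. The 3 were Nr2e3, a nuclear receptor of rods, at 4.23, 4.45 and 4.58 FPKM in triple-deficient and 3.67, 3.79 and 3.62 FPKM in control libraries, Esrrb, an orphan nuclear receptor, and Susd3, at 5.69, 5.58 and 4.29 FPKM in triple-deficient and 3.49, 3.67 and 3.33 FPKM in control libraries. Gngt1 and Rom1 overlapped between the groups. The summed FPKM of the 11 markers was 1838 to 1890.1 in triple-deficient and 1789.7 to 1898 in control libraries, ranges that overlap. Most of that sum was Sag, which mouse cones make as well, at 1284 to 1295 FPKM in triple-deficient and 1239 to 1345 FPKM in control libraries. Gnat1 and Cnga1, below the filter, were at or near 0 in both groups, Gnat1 at 0.304 ± 0.0543 FPKM in triple-deficient and 0.405 ± 0.0943 FPKM in control libraries (SD, n = 3 each).

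**Figure D4:**
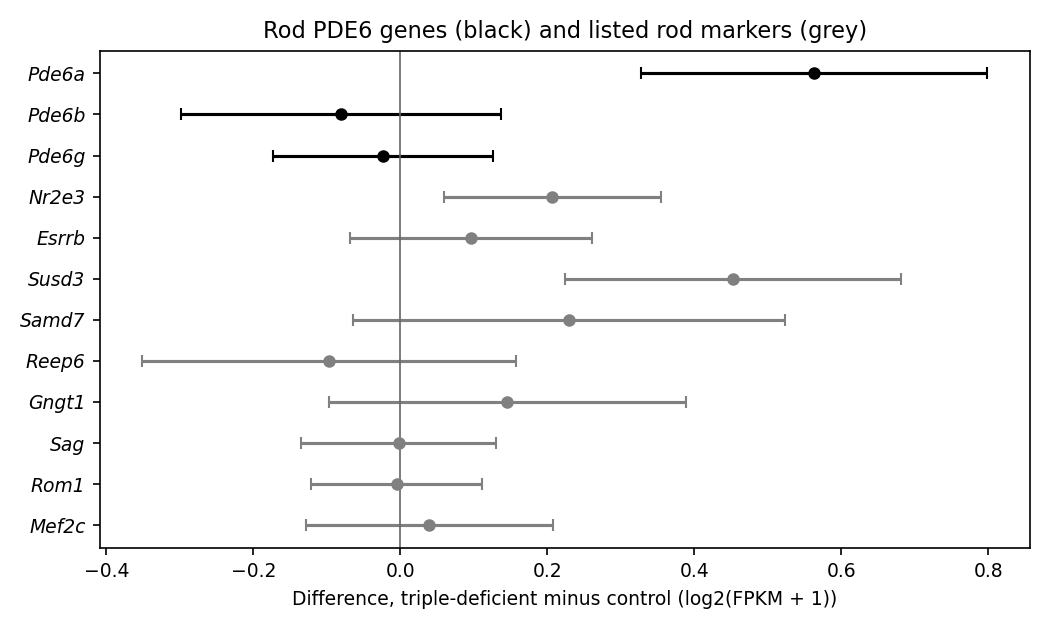
Difference between triple-deficient and control libraries on the log2(FPKM + 1) scale, with 95% intervals, for the rod genes of PDE6 in black and the 9 rod markers that passed the filter in grey. Pde6a and Susd3 lie farthest to the right, at 0.56 and 0.45, whereas Pde6b lies at -0.08 and Reep6 at -0.10.

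Genes that attach, trim and carry the lipid anchors of the catalytic subunits formed a second list of 15, of which 14 were in the tables under the listed symbol and were tested. None passed in limma (0.0279% of all genes tested did) and none had an unadjusted p below 0.05 (5.09% did). The median log2 difference was 0.008. Hsp90aa1 and Hsp90ab1, which encode the HSP90 that works with AIPL1, were at 468 ± 33.4 and 392 ± 8.64 FPKM in triple-deficient libraries and at 452 ± 22.1 and 392 ± 24.5 FPKM in controls (SD, n = 3 each). Arl3, the small GTPase that releases cargo from the protein encoded by Pde6d and from UNC119, was at 145 ± 8.84 FPKM in triple-deficient and 154 ± 10.3 FPKM in control libraries, and Icmt, which methylates prenylated C termini, at 90.8 ± 2.99 FPKM in triple-deficient and 90.0 ± 2.61 FPKM in control libraries. The subunits of farnesyltransferase had the smallest p-values of the list: Fntb was at 18.4 ± 1.11 FPKM in triple-deficient and 17.0 ± 1.08 FPKM in control libraries, and Fnta at 33.7 ± 1.37 FPKM in triple-deficient and 35.5 ± 1.23 FPKM in control libraries (limma adjusted p = 0.946 for both).

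Of 18 phosphodiesterase genes outside the PDE6 family 17 were tested. None passed in limma (0.0279% of all genes tested did) and none had an unadjusted p below 0.05 (5.09% did). Their median log2 difference was 0.009. Their levels were far below those of Pde6c: the most abundant, Pde8b, which hydrolyses cyclic AMP, was at 37.6 ± 1.95 FPKM in triple-deficient and 37.5 ± 0.750 FPKM in control libraries, and Pde1b, a calcium and calmodulin-dependent enzyme, at 29.3 ± 1.34 FPKM in triple-deficient and 29.5 ± 0.225 FPKM in control libraries. The cyclic AMP enzymes Pde4b and Pde4a were at 23.1 ± 1.80 and 15.2 ± 1.09 FPKM in triple-deficient libraries and at 22.6 ± 0.396 and 15.7 ± 0.590 FPKM in controls. All 18 summed to 184 to 188 FPKM in triple-deficient and 182 to 188 FPKM in control libraries, less than Pde6c alone in any library. Pde5a, a cyclic GMP enzyme, was at 2.22, 2.33 and 1.995 FPKM in triple-deficient and 1.98, 1.92 and 1.87 FPKM in control libraries, and Pde1c at 6.37 ± 0.492 FPKM in triple-deficient and 5.77 ± 0.142 FPKM in control libraries; the groups did not overlap for either of these 2 of 17 (4.86% of all genes tested did not overlap upward), and neither passed (limma adjusted p = 0.946 for both).

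Among the 10195 genes averaging 5 FPKM or more, those whose log2(FPKM + 1) values most resembled Pde6a over the 6 libraries were Plin2, a lipid droplet protein, Celf2, an RNA-binding protein, and Nploc4, a ubiquitin-binding cofactor, each at Pearson r = 0.98. For Pde6c they were Impact, Dynlt1b and Phospho2, at r = 0.99, 0.97 and 0.97. At the looser bound of r of 0.9, 45 of the 10195 genes reached it with Pde6a and 44 with Pde6c. With 6 libraries and so many genes compared, such values are no evidence of a link. All genes also share the depth and base composition of each library. The group differences within those patterns were far smaller than that of Pde6a itself: Plin2 was at 5.69, 6.21 and 5.66 FPKM in triple-deficient libraries 1, 2 and 3, against 5.31, 5.37 and 5.02 FPKM in controls 1, 2 and 3.

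Markers of other cells of the eye were set beside these values. Markers of the retinal pigment epithelium summed to 242 to 295 FPKM in triple-deficient and 286 to 302 FPKM in control libraries, of which Rlbp1, also made by Müller glia, supplied 208 to 247 FPKM in triple-deficient and 240.5 to 248 FPKM in control libraries. Dct, a melanin enzyme, was at 25.4 ± 5.67 FPKM in triple-deficient and 21.3 ± 4.57 FPKM in control libraries. It was the only tested pigment epithelium marker with a log2 difference above 0 (0.24). Of the 8 tested markers of that tissue, none passed in limma, 3 had an unadjusted p below 0.05 (5.09% of all genes tested did), and 4 had every triple-deficient library below the controls (5.64% of all genes tested); their median log2 difference was -0.26. Lens markers summed to 2.43 to 2.84 FPKM in triple-deficient libraries and to 2.70 to 2.97 FPKM in controls 2 and 3, but to 19.0 FPKM in control 1, with Cryaa, a lens crystallin, at 4.61 FPKM there. Bfsp2, a lens filament protein, was at 1.38 ± 0.148 FPKM in triple-deficient and 1.66 ± 0.0842 FPKM in control libraries, and none of the 4 tested lens markers passed. Cone markers summed to 5570 to 6040 FPKM in triple-deficient and 5931 to 5988 FPKM in control libraries. None of the 12 tested passed, and the median log2 difference was -0.01. Of these 12, 2 had an unadjusted limma p below 0.05 (5.09% of all genes tested did). The groups did not overlap upward for 2 of them and downward for none (4.86% and 5.64% of all genes tested). Markers of Müller glia, bipolar, amacrine and horizontal, and ganglion cells held no gene that passed in limma, with median log2 differences between -0.03 and 0.02. The Müller glia marker Apoe, a lipid carrier, stood at 545, 516 and 437 FPKM in triple-deficient libraries 1, 2 and 3, against 630, 569 and 599 FPKM in controls 1, 2 and 3, so that all triple-deficient libraries lay below the controls (log2 difference -0.27, 95% interval -0.46 to -0.07, limma adjusted p = 0.853). The glial enzyme Glul was at 661 ± 19.6 FPKM in triple-deficient and 661 ± 41.3 FPKM in control libraries. Pcp2 and Otx2 of bipolar cells were at 287 ± 25.7 and 220.2 ± 11.2 FPKM in triple-deficient libraries and at 263 ± 7.08 and 228 ± 8.75 FPKM in controls. Amacrine cells' Gad1 and Tfap2b were at 85.4 ± 1.03 and 64.9 ± 2.27 FPKM in triple-deficient libraries and at 84.3 ± 2.35 and 66.6 ± 1.71 FPKM in controls, and the ganglion cell genes Nefl and Sncg at 206 ± 17.9 and 150.4 ± 5.80 FPKM in triple-deficient libraries and at 218 ± 12.6 and 156 ± 10.9 FPKM in controls (SD, n = 3 each). The part of these cells in the values of the PDE6 genes was not tested.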

How the data were processed

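RNA from freshly isolated retinas was extracted with TRIzol and made into libraries with a stranded TruSeq mRNA kit, per the labels' protocols. The authors deposited 1 FPKM value per gene symbol and library. Per the submitters' processing notes, the build was mm10 and the tools were Cuffdiff, Cufflinks 2.2.1, TopHat2 2.1.1 and Bowtie2 2.3.5.1. Neither the annotation nor any setting or scaling between libraries is given in the sources used here.

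FPKM were used as deposited. Values below 0.3 FPKM take steps worth 1 fragment, from which relative depth was read (61.1% to 63.9% of ratios to control 1 matched ratios of whole numbers up to 6 to within 0.005 in log2; with the steps shifted, 4.52% or fewer did); 57 genes with 1 transcript put control 1 at about 22.5 M fragments. No counts were rebuilt. The genotypes were set against each other by limma 3.58.1 (R 4.3.3, mean-variance trend, two-sided) on log2(FPKM + 1) for the 14325 genes averaging 0.5 FPKM or more, a scale that understates changes of low genes, with Benjamini-Hochberg adjustment over all of them. The fit was tested on simulated data. GC content was that of each gene's longest transcript in GENCODE M21 (99.3% of genes tested had one).

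The genes and lists were chosen with earlier results of these data known. Besides the 8 PDE6 genes and the targeted genes, the text names, of each list, the 4 most abundant and the 2 with the smallest p, of each marker list the 2 most abundant, and the 3 genes most like Pde6a and Pde6c. Rod markers beyond these, and Cryaa, Gnat1 and Cnga1 where they fall outside that rule, were named after their values were seen. Same-numbered libraries were not treated as pairs: their deviations from the group means correlated at 0.02, 0.11 and 0.07, and no label ties a number to a litter. Of the listed genes, 1 is not reported here and was left out of the list counts.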

Additional observations from a re-analysis of the deposited data

How the results depend on the processing

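Over 19 alternatives to the fit, the difference of each of the 8 genes stayed within 1 residual SD of its reported value. Pde6a ranged from 0.46 to 0.65, Pde6h from -0.21 to -0.10, Unc119 from -0.17 to -0.06 and Pde6d from -0.11 to -0.02 on the log2 scale; Pde6b, Pde6c, Pde6g and Aipl1 crossed 0 within -0.16 to 0.13. The number of PDE6 genes called was 0 throughout, except 1 (Pde6a) with sex inferred from Xist as a term, chosen after seeing the data. Xist exceeded 1 FPKM in 1 triple-deficient and 2 control libraries. With the replicate number as a block, which the numbers do not justify, 4 genes were called over all genes and 0 of the 8 PDE6 genes (Pde6a limma adjusted p = 0.150). The number of genes called over all genes was 4 as reported, 2 with no filter, 2 with robust shrinkage, and 3 to 11 when 1 library was left out: 8 without control 3, 11 without triple-deficient 1 and 11 without triple-deficient 3. Of the other phototransduction genes, 0 to 1 were called when 1 library was left out. The 1 call, without triple-deficient 3, was Slc24a2 (log2 difference -0.97, limma adjusted p = 0.0141). With all 6 libraries the smallest limma adjusted p of that list was 0.866. The ratio of Pde6a to Pde6b differed by 0.283 to 0.504 over its 7 alternatives, against 0.387 as reported. The causes were not tested. Depth was about 18.1 M fragments or more per library by estimate, and its share in the width of the intervals was not tested.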
